A study of Mus musculus with 6 samples.

Results

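CC chemokines are small secreted proteins that guide leukocytes along concentration gradients, and 5 of their genes, Ccl2, Ccl7, Ccl5, Ccl9 and Ccl20, are described here in cultured mouse cancer cells. The members were selected on their measured levels and ratios in these same arrays, so their values are a description and no test of them is given. They are 5 of the 22180 genes measured, and each is read by 1 probe set. The grouping as monocyte attractants is a matter of background: the arrays measure transcript levels, not attraction, and Ccl20 is known mainly for drawing dendritic cells and lymphocytes.

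The sh Spp1 group holds 3 arrays of cells carrying a short hairpin RNA against Spp1, the gene of osteopontin, labelled as Spp1 depletion. The sh Ctrl group holds 3 arrays whose genotype label reads wild type, and the labels do not say which control hairpin, if any, these cells received. Each group has 1 array from LLC (a Lewis lung carcinoma line), 1 from AE17 (a malignant mesothelioma line) and 1 from MC38 (a colon adenocarcinoma line), all grown in DMEM with fetal bovine serum and untreated otherwise. The labels do not say whether the hairpin-carrying cells were clones or pools. Spp1 itself was not analysed here, so the directions below rest on the labels.

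Chemokines of this family bind G protein-coupled receptors on leukocytes and are held on the surface of cells by proteoglycans. Ccl2 and Ccl7 act through Ccr2 and draw monocytes out of the bone marrow and into tumours. Transcription of several of these genes is driven by NF-kB after interleukin-1, TNF or Toll-like receptor signals, and that of Ccl5 also by interferon regulatory factors.

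All levels below are log2 intensities after quantile normalization, which gives every array the same distribution, and a level is compared only with the same gene on other arrays. A log2 ratio is the sh Spp1 level minus the sh Ctrl level within a line, so -1 is a 2-fold lower level. Within a line it sets 1 array against 1 array with no replicate, and the standard deviation (SD) of a mean ratio is over the 3 lines. A level of 4.49, the 30th percentile of the probe set means, served as the floor for low signal. All 5 members were above it on all 6 arrays.

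Median deposited intensities ranged between 26.6 and 43.7 on the sh Spp1 arrays and between 36.3 and 64.2 on the sh Ctrl arrays. Within every line the sh Spp1 array had the lower median. The spread of deposited log2 intensities within an array was taken with both tails left out. It lay between 6.56 and 6.73 on the sh Spp1 arrays and between 5.99 and 6.05 on the sh Ctrl arrays. Array scale thus ran with the group, and its part in the ratios was not tested. The paired arrays correlated at 0.979 in LLC, 0.939 in AE17 cells and 0.982 in MC38 cells over all probe sets. The AE17 pair correlated less with each other than AE17 arrays did with arrays of other lines, at 0.943 to 0.954, while the LLC and MC38 pairs did not, so AE17 stood apart and every AE17 ratio below rests on that pair. The log2 ratios of 16797 genes had an SD of 0.45 in LLC, 0.93 in AE17 cells and 0.42 in MC38 cells. A limma fit over the 3 lines with the line as a block called 0 of these genes (0%) at a Benjamini-Hochberg adjusted p of 0.05, with 1017 at an unadjusted p below 0.05, and the paired test without moderation also called 0, with 1013. The smallest adjusted p in limma was 0.723, so none of the genes named below passed the test. The defining leukocyte markers Ptprc and Adgre1 were under the floor on all 6 arrays, and the other 10 of 12 macrophage markers were not, with Cd68 between 6.51 and 8.71, Cd14 between 6.26 and 7.42 and Lyz2 at 7.50 in sh Ctrl cells of AE17. The tissue markers Epcam (under the floor on all arrays), Cdx2 (4.96 to 5.57), Sftpc (4.60 to 5.31) and Nkx2-1 (4.46 to 5.54) were low in all lines. The mesothelial marker Msln read 5.34 in sh Spp1 and 5.13 in sh Ctrl cells of AE17. In MC38 it read 9.96 in sh Spp1 and 9.87 in sh Ctrl cells. Pdpn, also a mesothelial marker, was higher on both AE17 and both MC38 arrays than on both LLC arrays. Its AE17 arrays read 9.75 in sh Spp1 and 6.99 in sh Ctrl cells. The mesothelial markers Bnc1 and Gata6 did not share this order. Bnc1 read 6.47 in sh Spp1 and 8.15 in sh Ctrl cells of LLC, and 5.41 and 6.62 in those of AE17. Gata6 read 7.56 in sh Spp1 and 6.79 in sh Ctrl cells of LLC, and 7.53 and 4.77 in those of AE17. The summed linear level of 8 such markers was 1313 in sh Spp1 and 446.4 in sh Ctrl cells of AE17. It was 489.3 in sh Spp1 and 606.6 in sh Ctrl cells of LLC, and 2418 and 2373 in those of MC38. Epcam, Cdx2, Sftpc, Nkx2-1 and Msln thus do not show the tissue of origin that the line names imply.

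Ccl2 (Entrez 20296), the classical monocyte chemoattractant, was lower in the sh Spp1 cells of all 3 lines. In LLC its level was 8.59 in sh Spp1 cells, against 11.78 in sh Ctrl cells. In MC38 it was 10.18 in sh Spp1 cells, against 12.16 in sh Ctrl cells, and in AE17 10.54 in sh Spp1 cells, against 11.83 in sh Ctrl cells. Levels lay between 8.59 and 10.54 on the sh Spp1 arrays and between 11.78 and 12.16 on the sh Ctrl arrays. The share of all genes whose groups separate was not counted, and Ccl2 was chosen with these levels known. The sh Ctrl arrays spanned only 0.39 log2 units, while the sh Spp1 arrays spanned 1.96. The group means were 9.77 ± 1.04 in sh Spp1 cells and 11.92 ± 0.21 in sh Ctrl cells (SD, n = 3 each). In bulk RNA, fewer cells making a message and less message per cell cannot be told apart.

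The log2 ratio of Ccl2 was -3.19 in LLC, -1.28 in AE17 cells and -1.98 in MC38 cells, a mean of -2.15 ± 0.96 (SD, n = 3 lines). These are 9.13-fold, 2.43-fold and 3.94-fold lower levels in sh Spp1 cells. Only 0.0469% of 17057 genes had a lower ratio in LLC and 0.394% of 17019 in MC38. In AE17, where ratios of all genes spread more widely, 5.11% of 17679 genes had a lower ratio than Ccl2. On the deposited scale, before normalization, the intensities were 438.4 in sh Spp1 and 3667.7 in sh Ctrl LLC cells, 1229.9 in sh Spp1 and 2865.1 in sh Ctrl cells of AE17, and 1472.2 in sh Spp1 and 4210.4 in sh Ctrl cells of MC38.

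Ccl2 was 1 of 5 genes, or 0.0298% of 16797, at least 1 log2 unit lower in all 3 lines. The other 4 were Cxcl1, a neutrophil chemoattractant, Pdgfra, a receptor of platelet-derived growth factors, Clec1a, a C-type lectin, and Herc6, an interferon-induced ligase of the ubiquitin-like protein Isg15 in the mouse. Clec1a and Herc6 were named after their values were seen, because the count is this small. With arrays centred on the median, Ccl2 was -0.77 and Pdgfra -0.58 in AE17 and Cxcl1 was -0.98 in LLC, so these 3 did not reach 1 log2 unit in all lines there. Relative to the median of all genes under that scaling, Ccl2 in AE17 was -0.99. Of all genes 15.5% were lower by any amount in all 3 lines and 16.8% higher by any amount in all 3, so sharing a sign across the lines is common.

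Ccl7 (Entrez 20306), the neighbouring gene and a further Ccr2 ligand, was lower in sh Spp1 cells of LLC and MC38. In LLC its level was 5.90 in sh Spp1 cells and 9.53 in sh Ctrl cells, and in MC38 it was 6.94 in sh Spp1 cells and 9.69 in sh Ctrl cells. In AE17 the levels were 9.62 in sh Spp1 cells and 10.17 in sh Ctrl cells. The groups overlapped, because the AE17 sh Spp1 array lay above the lowest sh Ctrl array, that of LLC. As for Ccl2, the sh Ctrl arrays were close together, spanning 0.64 log2 units, and the sh Spp1 arrays were not, spanning 3.72.

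The Ccl7 ratio was -3.63 in LLC, -0.54 in AE17 cells and -2.76 in MC38 cells, with a mean of -2.31 ± 1.59 (SD, n = 3 lines). Levels were 12.4-fold lower in LLC and 6.76-fold lower in MC38. Only 0.0293% of genes had a lower ratio in LLC and 0.159% in MC38, against 21.1% in AE17. With the arrays centred on their medians instead, the AE17 ratio was 0.04, and relative to the median of all genes under that scaling it was -0.18. Ccl2 and Ccl7 were among 31 genes, 0.185% of 16797, at least 1 log2 unit lower in both LLC and MC38.

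**Figure D1:**
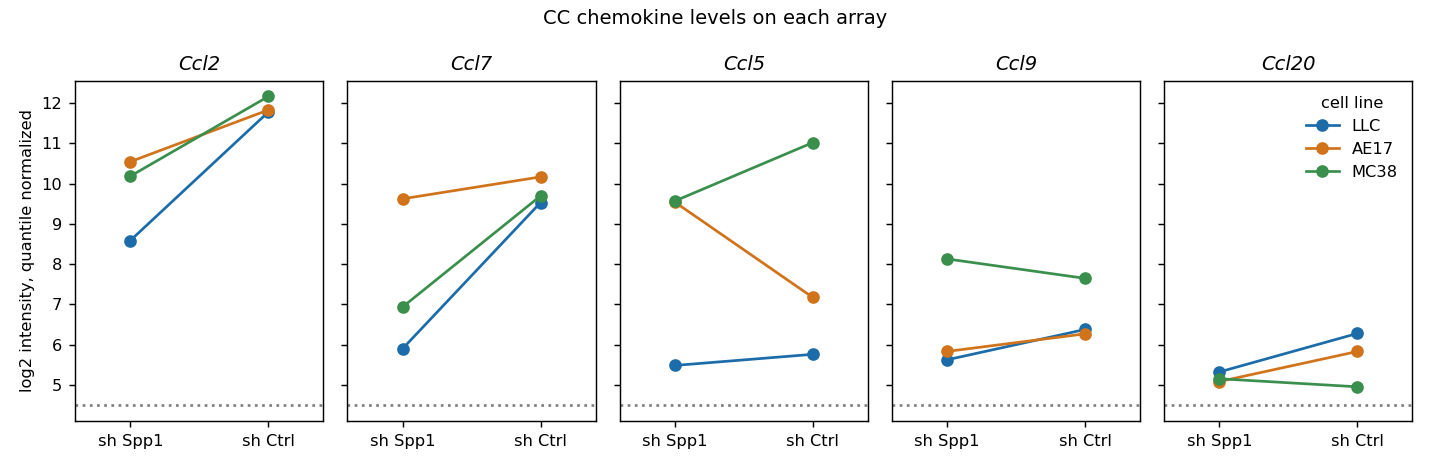
Log2 intensity (quantile normalized, vertical axis) of the 5 chemokine genes on each of the 6 arrays, sh Spp1 left and sh Ctrl right, with a line joining the 2 arrays of a cell line and a dotted line at the floor of 4.49. Ccl2 shows sh Spp1 arrays between 8.59 and 10.54 and sh Ctrl arrays between 11.78 and 12.16, while the lines of Ccl5, Ccl9 and Ccl20 cross or run in different directions (that of Ccl20 in MC38 turned with the deposited scale).

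Ccl5 (Entrez 20304), known as RANTES, a chemokine that draws T cells and monocytes, had ratios of opposite sign in AE17 and MC38. In AE17 its level was 9.54 in sh Spp1 cells, against 7.17 in sh Ctrl cells. In MC38 it was 9.57 in sh Spp1 cells, against 11.02 in sh Ctrl cells. In LLC it was low on both arrays, 5.49 in sh Spp1 cells and 5.76 in sh Ctrl cells. The sh Spp1 arrays of AE17 and MC38 were thus nearly alike, and their sh Ctrl arrays lay 3.84 log2 units apart.

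The Ccl5 ratios were -0.28 in LLC, 2.37 in AE17 cells and -1.45 in MC38 cells, and their mean of 0.21 ± 1.96 (SD, n = 3 lines) describes none of the lines. AE17 sh Spp1 cells had a 5.16-fold higher level, above the ratio of 97.8% of genes in that line, and MC38 sh Spp1 cells a 2.73-fold lower one, with 0.852% of genes lower. These signs were the same under the 4 scalings tried. The difference between lines has no replicate and was not tested. The deposited intensities were 599.39 in sh Spp1 and 105.35 in sh Ctrl AE17 cells, and 967.77 in sh Spp1 and 1957.7 in sh Ctrl MC38 cells.

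Ccl9 (Entrez 20308) is a mouse chemokine that signals through Ccr1 and draws myeloid cells and osteoclast precursors. It differed more between MC38 and the other lines than between the sh Spp1 and sh Ctrl cells of any line. Its levels were 8.13 in sh Spp1 and 7.65 in sh Ctrl cells of MC38, both above all 4 arrays of the other lines. In LLC they were 5.63 in sh Spp1 and 6.38 in sh Ctrl cells, and in AE17 5.83 in sh Spp1 and 6.27 in sh Ctrl cells. The ratios were -0.75 in LLC, -0.44 in AE17 cells and 0.48 in MC38 cells, a mean of -0.24 ± 0.64 (SD, n = 3 lines). A share of 4.27% of genes in LLC and 26% in AE17 had a lower ratio, and 90.6% in MC38.

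Ccl20 (Entrez 20297), the ligand of Ccr6, lay between percentiles 41.1 and 63.6 of the probe sets of its array. Its levels were 5.32 in sh Spp1 and 6.28 in sh Ctrl cells of LLC, 5.09 in sh Spp1 and 5.83 in sh Ctrl cells of AE17, and 5.16 in sh Spp1 and 4.96 in sh Ctrl cells of MC38. The ratios were -0.96 in LLC, -0.75 in AE17 cells and 0.20 in MC38 cells, a mean of -0.50 ± 0.62 (SD, n = 3 lines). The MC38 value has no settled sign, since it was -0.01 in the deposited intensities. In LLC 2.06% of genes had a lower ratio, in AE17 14.1% and in MC38 70.7%.

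Ccl9 and Ccl20 thus had the same sign as each other in each line, lower in sh Spp1 cells of LLC and AE17 and higher in MC38, with the sign of Ccl20 in MC38 turned in the deposited intensities. Of the 5 members these 2 have an entry in the RefSeq promoter table for build GRCm38.p6, and the 250 bases before each start are shown because both genes hold a match to the NF-kB consensus there. Capitals mark the matches, on whichever strand they lie. The Ccl9 sequence is chr11:83578637-83578886 on the minus strand and the Ccl20 sequence chr1:83116516-83116765 on the plus strand, each written 5′ to 3′ along its gene.
Ccl9: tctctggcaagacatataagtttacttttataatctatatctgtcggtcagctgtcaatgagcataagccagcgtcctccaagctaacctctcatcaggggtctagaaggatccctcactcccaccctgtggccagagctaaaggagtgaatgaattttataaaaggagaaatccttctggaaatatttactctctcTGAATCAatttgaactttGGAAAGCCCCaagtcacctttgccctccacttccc
Ccl20: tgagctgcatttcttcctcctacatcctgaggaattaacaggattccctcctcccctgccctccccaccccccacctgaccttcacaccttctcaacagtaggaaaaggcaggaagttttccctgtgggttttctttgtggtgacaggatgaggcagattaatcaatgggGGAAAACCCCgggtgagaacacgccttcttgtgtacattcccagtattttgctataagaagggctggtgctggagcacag

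In Ccl9 the NF-kB match, read as GGGGCTTTCC on the opposite strand, lies 35 to 26 bases before the start, and a match to the AP-1 motif TGANTCA lies 53 to 47 bases before it. In Ccl20 the NF-kB match, GGGGTTTTCC on the opposite strand, lies 80 to 71 bases before the start, and the AP-1 motif was not found in this window. Both strands were searched and the motifs do not overlap in these sequences. Of 32851 promoters of the same length in the table, 3.90% hold the NF-kB consensus and 6.75% the AP-1 motif. Among the 14 other CC chemokine genes with an entry, 0 hold the NF-kB consensus and 2 the AP-1 motif. These matches describe letters only and say nothing about binding.

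At least 1 log2 unit lower were Ccl2 and Ccl7 in LLC, where 1.81% of genes were; Ccl2 in AE17, where 8.72% were; and Ccl2, Ccl7 and Ccl5 in MC38, where 1.71% were. At least 1 log2 unit higher were 0 members in LLC (1.75% of genes) and MC38 (0.881%), and Ccl5 in AE17 (9.90%). The members were chosen on these ratios, so nothing is read from these counts.

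**Figure D2:**
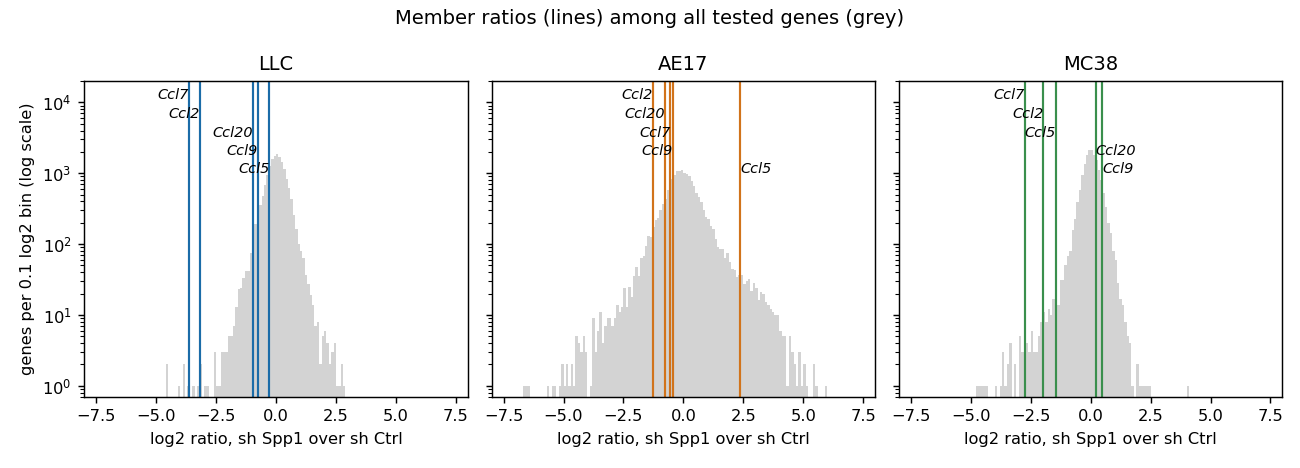
Distribution of the log2 ratios, sh Spp1 over sh Ctrl, of all tested genes in each cell line (grey, horizontal axis in log2 units, vertical axis the number of genes per bin on a log scale) with the 5 chemokines marked. Ccl2 and Ccl7 lie far in the lower tail in LLC and MC38, and in AE17, whose distribution is wider with an SD of 0.93, Ccl5 lies at 2.37 in the upper tail.

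The choice of scaling moved the centre of all ratios. The median ratio over all genes was 0.03, -0.04 and 0.02 (LLC, AE17, MC38) after quantile normalization, and -0.46, -0.23 and 0.08 in the deposited intensities. Relative to those medians Ccl2 kept ratios of -2.60, -0.99 and -1.60 in the deposited intensities, and Ccl7 -3.47, -0.18 and -2.55. Ccl5 kept -0.58, 2.74 and -1.10. Of the members' 15 ratios within lines, 2 turned sign under any scaling, those of Ccl7 in AE17 and Ccl20 in MC38. Relative to the median of all genes Ccl7 in AE17 stayed below 0 under all 4 scalings, and Ccl20 in MC38 was -0.09 in the deposited intensities.

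**Figure D3:**
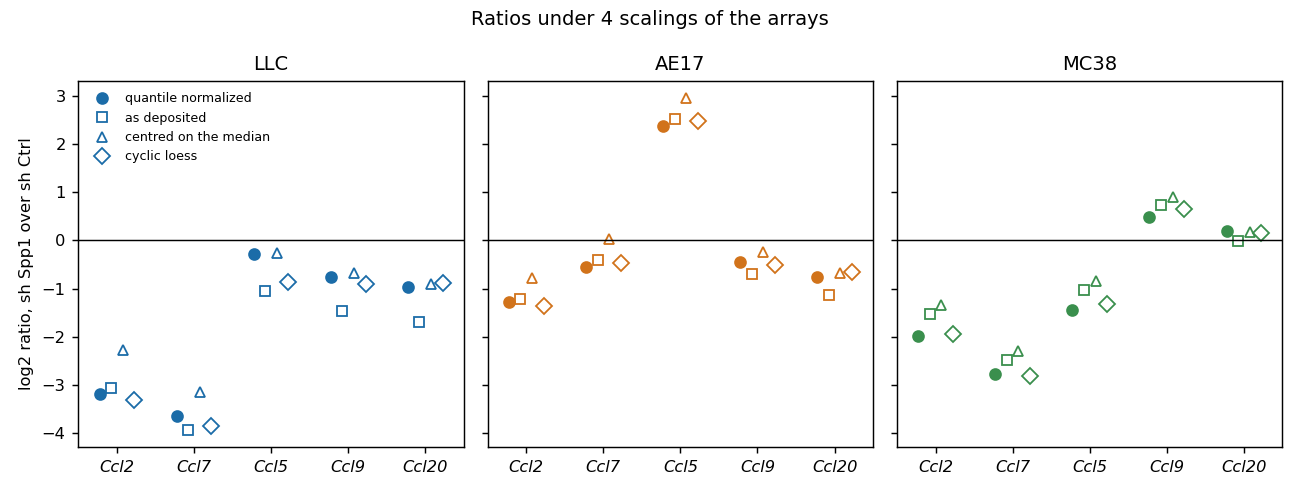
Log2 ratios, sh Spp1 over sh Ctrl (vertical axis), of the 5 chemokines in LLC, AE17 and MC38 under 4 scalings of the arrays, shown by symbols. The sign of Ccl7 in AE17 (0.04 when centred on the median, -0.18 relative to all genes) and of Ccl20 in MC38 (-0.01 as deposited) turned, and all other members kept their side of 0.

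Across the 6 arrays, Ccl2 and Ccl7 varied together, with a Pearson r of 0.896 and a Spearman coefficient of 0.886. Ccl5 and Ccl20 ran opposite, with a Pearson r of -0.748 and a Spearman coefficient of -0.771, and Ccl5 and Ccl9 had 0.657 and 0.714 by the same measures. The arrays share lines and hairpins, so they are not independent, and these values are a description over 6 points.

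The mean level of a line was taken over its sh Spp1 and sh Ctrl arrays. By this mean Ccl2 and Ccl7 shared an order of the lines, Ccl5 and Ccl9 shared a further one, and Ccl20 had its own. In sh Ctrl cells alone the orders were not shared: Ccl2 was highest in MC38 (12.16) and Ccl7 in AE17 (10.17). There Ccl9 was lower in AE17 (6.27) than in LLC (6.38), unlike Ccl5 (7.17 in AE17 and 5.76 in LLC). Ccl2 averaged 11.19 in AE17, 11.17 in MC38 and 10.18 in LLC, and Ccl7 9.89, 8.32 and 7.71. The arrays of all lines overlapped for Ccl2. For Ccl7 both LLC arrays lay below both AE17 arrays, and those of MC38 overlapped with each. Ccl5 averaged 5.62 in LLC, 8.36 in AE17 and 10.29 in MC38. Its LLC arrays lay below all others, while the higher AE17 array and the lower MC38 array were 0.03 log2 units apart. Ccl9 averaged 7.89 in MC38 and 6.05 in AE17, and the AE17 arrays overlapped those of LLC. Ccl20 averaged 5.80, 5.46 and 5.06 (LLC, AE17, MC38), with the arrays of AE17 overlapping those of LLC and of MC38.

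Genes with the most similar pattern were sought for each member by Pearson r over the 6 arrays, among genes with an SD over the arrays of at least 0.5 times that of the member. Such r values are the highest of many and describe these arrays only. For Ccl5, with 771 candidates, they were Ifit1 (0.998) and Isg15 (0.983), both interferon-stimulated genes, Ifih1 (0.997), the double-stranded RNA sensor MDA5, Psmb8 (0.989), a subunit of the immunoproteasome, and Bhlhe40 (0.987), a transcriptional repressor. Ifit1 read 9.42 in sh Spp1 and 6.80 in sh Ctrl cells of AE17, and 9.15 in sh Spp1 and 10.83 in sh Ctrl cells of MC38. In LLC it read 4.73 in sh Spp1 and 4.80 in sh Ctrl cells. Its ratios of -0.06, 2.63 and -1.68 (LLC, AE17, MC38) followed the order of those of Ccl5. Ifit1 was chosen for its r to Ccl5 on these arrays, so this is no further result.

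For Ccl7, with 1296 candidates, the list was led by Slpi (r = 0.980), a secreted inhibitor of leukocyte proteases, with ratios of -2.07, 0.21 and -1.48 (LLC, AE17, MC38). After it came Ccl2 (0.896), Idh1 (0.847), a cytosolic isocitrate dehydrogenase, Tnfaip6 (0.813), a hyaluronan-binding protein induced by TNF, and Cyp4v3 (0.782), a cytochrome P450. For Ccl2, with 2158 candidates, these were the DNA primase subunit Prim2 (0.904), Ccl7, the Fanconi anaemia protein Fanci (0.878), Pdgfra (0.866) and the mitotic kinesin Kif15 (0.861). Pdgfra read 6.83 in sh Spp1 and 8.56 in sh Ctrl cells of LLC, 8.97 in sh Spp1 and 10.11 in sh Ctrl cells of AE17, and 8.87 in sh Spp1 and 10.76 in sh Ctrl cells of MC38. Its groups overlapped, and within each line the sh Spp1 array was the lower.

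For Ccl9 the 5 genes were En1 (0.997), a homeobox transcription factor, Sass6 (0.994), a centriole assembly protein, Fam83f (0.987), Macc1 (0.984) and the orphan receptor Gprc5b (0.983), of 3885 candidates. All 5 were higher on both MC38 arrays than on the other 4. For Ccl20, with 10082 candidates, they were Ranbp3l (0.983), Zfp934 (0.969), Arhgap6 (0.967), a GTPase-activating protein, Ikbip (0.963) and Ube2v2 (0.958), a ubiquitin-conjugating enzyme variant. Ranbp3l had ratios of -4.58 in LLC and -4.24 in AE17 and was under the floor on both MC38 arrays and on the AE17 sh Spp1 array.

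**Figure D4:**
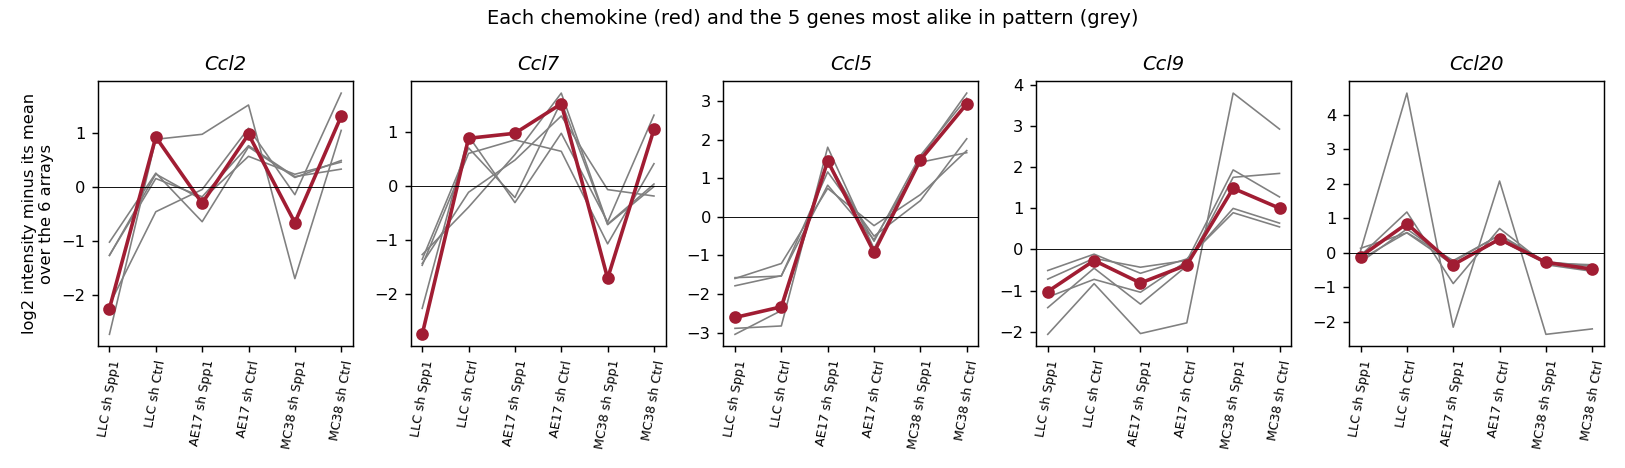
Level of each chemokine (red) and of its 5 most similar genes (grey) on the 6 arrays, as log2 intensity minus the mean over the arrays (vertical axes differ). The Ccl5 panel shows the closest agreement, with the 5 genes at r of 0.983 to 0.998.

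The order of genes on the chromosomes, taken from RefSeq GRCm38.p6, places 4 of the 5 members on chromosome 11. Ccl2, Ccl7, Ccl11, Ccl12, Ccl8 and Ccl1 follow each other, and in a second cluster Ccl5, Ccl9, Ccl6, Ccl3 and Ccl4 do, while Ccl20 lies on chromosome 1. In LLC and MC38 no tested neighbour shown was as low as Ccl2 or Ccl7, whereas in AE17 the flanking gene Cct6b was lower than both. The eosinophil chemoattractant Ccl11 had ratios of -0.48, -0.48 and 0.05 (LLC, AE17, MC38), the monocyte attractant Ccl8 0.42, 0.83 and 0.08, and Ccl1, a Ccr8 ligand, 0.09, -0.13 and -0.04. The MC38 values of Ccl11 and Ccl8 turned sign with the scaling, as did the LLC values of Ccl8 and Ccl1. Ccl12, a mouse Ccr2 ligand, was under the floor on all 6 arrays.

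In the cluster of Ccl5, the inflammatory macrophage chemokines Ccl3 and Ccl4 had ratios between -0.28 and 0.44, and Ccl6 was under the floor. Ccl5 alone there passed 1 log2 unit in any line. Outside the clusters, AE17 held large ratios at the side of Ccl2: the unconventional myosin Myo1d had 1.58, 4.42 and -0.96 (LLC, AE17, MC38), and Tmem98 0.34, 2.94 and -0.15. On the other side Cct6b, a chaperonin subunit, had -0.58, -2.05 and -0.93. The 6 nearest tested genes around Ccl20 had ratios between -1.08 (Dner in AE17) and 0.66 (Pid1 in MC38).

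**Figure D5:**
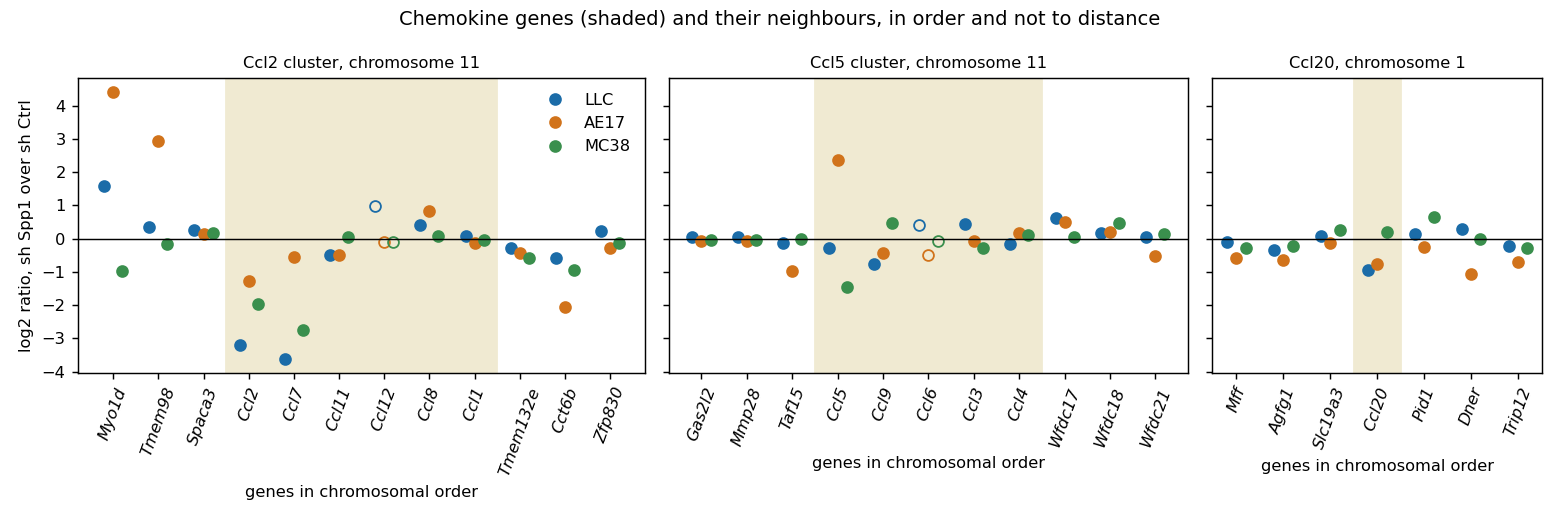
Log2 ratios, sh Spp1 over sh Ctrl (vertical axis), of the chemokine clusters (shaded) and the 3 nearest tested non-chemokine genes on each side, in chromosomal order and not to distance, with open symbols for genes under the floor. Ccl2 and Ccl7 reach -3.19 and -3.63 in LLC beside Ccl11, Ccl8 and Ccl1 between -0.48 and 0.83, and Ccl7 in AE17, at -0.54, was 0.04 when arrays were centred on the median and -0.18 relative to all genes there.

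Of 19 further CC chemokine genes, 14 had a probe set and 11 were tested. None of them passed the test, 0 were lower in all 3 lines and 2 higher in all 3 (Ccl8 and Ccl24). Their median ratios were -0.17 in LLC, -0.08 in AE17 cells and 0.04 in MC38 cells, beside 0.03, -0.04 and 0.02 over all genes. The mean ratio was lowest for Ccl28, a mucosal chemokine with ratios of -0.37, -1.39 and 0.04 (LLC, AE17, MC38), and Ccl25, a thymic and gut chemokine with 0.50, -1.36 and -0.04. It was highest for Ccl8 and for Ccl17, a Ccr4 ligand (-0.29, 0.92 and 0.25). The MC38 signs of Ccl28, Ccl25 and Ccl8 turned with the scaling, as did the LLC sign of Ccl8 and the LLC and AE17 signs of Ccl24.

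Most receptor genes read under the floor in these cells. Of 16 receptor genes, 15 had a probe set and 6 were tested. Ccr2, the receptor of Ccl2 and Ccl7, was above the floor on 1 of 6 arrays and Ccr1 on 0, and Ccr6, the receptor of Ccl20, on 3. None passed the test, 3 were lower in all 3 lines and 0 higher. The scavenging receptor Ackr3 had -0.06, -1.76 and -1.17 (LLC, AE17, MC38), the first near 0, and the atypical receptor Ccrl2 -0.77, 0.45 and -1.43. The highest mean ratios were those of Ccr6 (0.21, -0.14 and -0.31, with the LLC sign turned by scaling) and Ccr10 (-0.03, -0.25 and -0.30), both small. Median ratios of the 6 were -0.05, -0.41 and -0.31.

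Among 11 tested genes of other factors that attract monocytes or sustain macrophages, 0 passed the test. Of them 2 were lower and 4 higher in all 3 lines. Lowest by mean ratio were Il34 (-0.25, 0.30 and -0.91 in LLC, AE17 and MC38) and Csf2 (-0.35, -0.17 and -0.19), the latter near the floor. Besides Csf1 the highest was Cxcl14 (-0.06, 1.92 and -0.10). Csf1, the growth factor of macrophages, was on the higher side: 11.09 in sh Spp1 and 10.44 in sh Ctrl cells of LLC, 9.68 in sh Spp1 and 8.47 in sh Ctrl cells of AE17, and 11.10 in sh Spp1 and 10.55 in sh Ctrl cells of MC38. Its ratios were 0.66, 1.21 and 0.55, with an adjusted p of 0.723 in limma. Csf1 thus had the opposite sign to Ccl2 in every line, under each of the 4 scalings.

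Of 9 tested CXC chemokine genes, 0 passed the test, 3 were lower and 0 higher in all 3 lines. Cxcl1 read 6.39 in sh Spp1 and 7.67 in sh Ctrl cells of LLC, 6.28 in sh Spp1 and 8.03 in sh Ctrl cells of AE17, and 5.58 in sh Spp1 and 7.15 in sh Ctrl cells of MC38. The Cxcl1 ratios of -1.29, -1.75 and -1.57 varied less than those of Ccl2. Cxcl5, a further neutrophil chemoattractant, had -4.07, -1.19 and -0.21 (LLC, AE17, MC38). Cxcl10, an interferon-induced T cell chemoattractant named after its values were seen, had 0.15, 2.31 and -3.34, the same signs in AE17 and MC38 as Ccl5.

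Regulators that act on chemokine genes gave no common direction. Of 19 tested NF-kB subunits, kinases and inhibitors, 1 was lower and 3 higher in all 3 lines, and 0 passed the test. The subunit gene Nfkb2 had 1.15, 1.49 and 0.17 (LLC, AE17, MC38). Nfkbia, which encodes an NF-kB inhibitor, had -0.84, 0.03 and -1.07. Any part of NF-kB in the chemokine ratios was not tested. Median ratios of the 19 were 0.09, 0.22 and -0.06.

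Of 17 tested receptors, cytokines and adaptors that induce chemokine genes, 3 were lower and 4 higher in all 3 lines, and 0 passed the test. The interleukin-1 receptor gene Il1r1 had -0.59, -0.76 and -0.56 (LLC, AE17, MC38). Its signs in LLC and MC38 turned with the scaling, in LLC also relative to the median of all genes. Tlr3, which senses double-stranded RNA, had -0.67, -0.68 and -1.56, and Pdgfb, a growth factor, -0.06, 2.23 and 1.34. The ligand genes Il1a and Il6 were under the floor on all 6 arrays and Il1b on 5.

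The 18 tested genes of interferon signalling included 1 that was lower in all 3 lines and 0 that were higher, and 0 passed the test. In MC38, 5 of them were at least 1 log2 unit lower, and in AE17 3 were at least 1 log2 unit higher and 2 lower. Over all genes these shares were 1.71%, 9.90% and 8.72%, and 3 and 2 of 18 stand near the AE17 shares. Irf7, a master regulator of interferon genes, read 9.07 in sh Spp1 and 7.89 in sh Ctrl cells of AE17, and 6.11 in sh Spp1 and 9.79 in sh Ctrl cells of MC38. Stat2 had ratios of -0.09, 0.17 and -2.08 (LLC, AE17, MC38). These were the lowest of the list by mean ratio. The highest were Irf8, with -0.56, 0.90 and 0.49, and Ifnar2, with 0.15, 0.83 and -0.41. The MC38 sign of Ifnar2 turned with the scaling. The interferon gene Ifnb1 was under the floor on all 6 arrays.

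Among 13 genes that control the decay of cytokine messages, all tested, 0 passed the test, 0 were lower and 2 higher in all 3 lines. Lowest by mean ratio were Zc3h12c (0.26, -1.13 and 0.08 in LLC, AE17 and MC38) and Tnpo1 (0.13, -0.70 and -0.05). The MC38 sign of Tnpo1 turned with the scaling. Zfp36, which encodes the message-destabilising protein tristetraprolin, read 8.08 in sh Spp1 and 6.88 in sh Ctrl cells of LLC, 10.14 in sh Spp1 and 7.30 in sh Ctrl cells of AE17, and 7.55 in sh Spp1 and 7.57 in sh Ctrl cells of MC38. Of 16 tested proteoglycans and proteases that hold or cut chemokines, 0 passed the test, 2 were lower and 1 higher in all 3 lines. Mmp2, a gelatinase that cleaves Ccl7, had -0.73, -5.67 and -1.04 (LLC, AE17, MC38), and Mmp9 -0.65, -0.91 and -2.08. The glypican gene Gpc6 had 1.71, 3.12 and -0.71 (LLC, AE17, MC38) and was under the floor in sh Spp1 cells of MC38. Gpc4 was above the floor on 2 of 6 arrays, with 8.79 in sh Spp1 cells of AE17 and a level under the floor in sh Ctrl cells of AE17.

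Markers of other cell types were compared because macrophages and fibroblasts also make these chemokines. Of 12 monocyte and macrophage markers, 10 were above the floor on at least 1 array, and their summed linear level ranged between 473.0 and 866.3 in sh Spp1 cells and between 447.5 and 711.7 in sh Ctrl cells. Of 8 fibroblast markers, all were above the floor on at least 1 array, with sums of 1044 in sh Spp1 and 1730 in sh Ctrl cells of LLC, 7546 in sh Spp1 and 1739 in sh Ctrl cells of AE17, and 3687 in sh Spp1 and 6189 in sh Ctrl cells of MC38. The fibroblast sum was thus lower in sh Spp1 cells of LLC and MC38 and higher in AE17. A linear sum is led by the brightest genes: in AE17 Col1a1 read 11.96 in sh Spp1 and 6.87 in sh Ctrl cells. Pdgfra had a ratio of -1.14 there and Col1a2 0.13. Of 6 tested fibroblast markers, 5 had a ratio below 0 in LLC, 1 in AE17 and 6 in MC38. Over all genes 47.2%, 52.7% and 47.7% were lower (LLC, AE17, MC38). Any part of these markers in the chemokine ratios was not tested. T and B cell markers summed to 155.6 in sh Spp1 and 160.8 in sh Ctrl cells of LLC. Their sums were 184.1 in sh Spp1 and 212.2 in sh Ctrl cells of AE17, and 210.6 and 174.9 in those of MC38. Endothelial markers summed to 179.8 in sh Spp1 and 191.3 in sh Ctrl cells of LLC. Their sums were 188.3 in sh Spp1 and 291.5 in sh Ctrl cells of AE17, and 186.2 and 186.3 in those of MC38.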

How the data were processed

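Total RNA was labelled with biotin and hybridised to whole-transcript arrays, 1 per line and group, per the labels. The deposited table holds linear intensities of 41345 probe sets, made by the authors with RMA per the submitters' processing notes and GeneSpring per the design text. Because array medians were unequal, the values were treated as lacking normalization between arrays. They were log2 transformed and quantile normalized with limma 3.58.1 in R 4.3.3. Groups came from the titles. Of the probe sets, 23521 carry 1 gene symbol, 1814 several and 16010 none, and 23328 matched RefSeq GRCm38.p6 by Entrez ID. Testing was limited to singly named probe sets whose mean reached the floor (17757, for 16797 genes), with the brightest standing for its gene. The line served as block, since each line gave 1 pair. P-values measure the spread between lines. The code of the fit was checked on simulated data. Recovery of changed genes was required only at a spread below the real one, so this does not show what the fit can detect here. Within lines, a log2 ratio of at least 1 was counted among genes above the floor on at least 1 array. The members and lists were chosen with earlier results of these data known. Apart from the members, the naming rule took the 2 highest and 2 lowest genes of a list by mean ratio. Added to these were list genes at least 1 log2 unit apart in the same direction in all lines. The 5 most similar genes and the 3 nearest genes on each side were also taken. Not every gene taken by this rule is named, so the genes shown do not give both ends of every list. Genes under the floor, receptors of the members, defining markers, Ccl24 and Cxcl10 are named outside this rule, with their values known. Alternatives covered scaling, floor, probe sets, moderation, weights and lines left out. Python 3.11.15 with matplotlib 3.10.9 made the figures. The precision is limited by the number of arrays.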

Additional observations from a re-analysis of the deposited data

Results flagged for a closer look

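Several genes had opposite signs in different lines, each from 1 sh Spp1 array against 1 sh Ctrl array, and these differences between lines were not tested. The log2 ratio of Ccl5 was 2.37 in AE17 and -1.45 in MC38. That of Ccl9 was 0.48 in MC38 and -0.75 in LLC, and that of Ccl20 was 0.20 in MC38 and -0.96 in LLC. Ifit1 had 2.63 in AE17 and -1.68 in MC38, Ifih1 2.07 and -1.48, Isg15 1.66 and -1.60, and Irf7 1.18 and -3.68. The B cell marker Cd79a had 1.34 in MC38, with 6.10 in sh Spp1 and 4.76 in sh Ctrl cells. In AE17 it had -1.06, with 4.76 in sh Spp1 and 5.83 in sh Ctrl cells. It was under the floor on both LLC arrays.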

How the results depend on the processing

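No hairpin effect on any gene passed an adjusted p of 0.05 in limma under the 14 alternatives to that fit, which included no replicate block (0 genes), each line left out in turn and the other scalings. At an unadjusted p below 0.05 they gave between 552 and 4332 genes, the fit without the block 630. Of 35 alternatives for the members' mean ratios, 33 kept the sign within the spread between lines. Averaging all probe sets of a gene, counted among them, could not change a value, since each member has 1 probe set. The spread between lines is a loose limit, with an SD of 1.96 for Ccl5. The mean ratio of Ccl9, -0.24, counted as kept at -1e-04 with arrays centred on the median. The mean ratio of Ccl5 was -0.86 without AE17, and that of Ccl9 was 0.023 without LLC, since 1 line decides each. Leaving out 1 line in turn, the mean ratios lay between -2.58 and -1.63 for Ccl2, -3.19 and -1.65 for Ccl7, -0.86 and 1.05 for Ccl5, -0.59 and 0.02 for Ccl9, and -0.85 and -0.27 for Ccl20. Of 45 alternatives for ratios within lines, 41 kept their value within that spread. Ccl7 in AE17 was 0.041 when arrays were centred on their medians (-0.18 relative to the median of all genes), and Ccl20 in MC38 -0.0108 in the deposited intensities, where Ccl9 and Ccl20 in LLC were -1.45 and -1.69. Counts of genes at least 1 log2 unit apart moved with the scaling, which shifts the median of all genes. In the deposited intensities 3218 were lower and 134 higher in LLC, and 380 higher in MC38. Centred on the median, 156 were lower and 2707 higher in LLC, 855 lower and 3362 higher in AE17, and 857 higher in MC38. Ccl20 and several list genes lay near the floor, where small ratios carry little information.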
